A study of Mus musculus with 24 samples.

Results

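Expression of 9 genes that mark steps of the neural lineage was followed through the differentiation of male C57/Bl6 mouse embryonic stem cells (mESCs): *Pax6*, *Sox1*, *Sox11*, *Nes*, *Tubb3*, *Neurog2*, *Hes5*, *Dcx* and *Map2*. They were chosen by symbol, and 8 of the 9 were found among the 25965 entries of the expression table under that symbol. *Map2* was found under its older symbol, *Mtap2*. The values are log2 rpm, where rpm is the number of reads of a gene for every 1000000 reads of its library. All cells carried a retroviral hairpin that was delivered on day 2 and selected with puromycin from day 3, while the medium was changed stepwise from 2i with LIF, which holds mESCs undifferentiated, to serum medium without any neural inducer. Hairpins Smarcc1.6 and Smarcc1.7 targeted *Smarcc1*, a core subunit of the BAF chromatin remodelling complex, hairpins Smarca4.4 and Smarca4.6 targeted *Smarca4*, its ATPase, and the control was a nonsilencing hairpin (Nons). RNA was sequenced on days 4, 5, 6 and 7, with 1 library per hairpin and day, which gave 8 *Smarcc1* knockdown, 8 *Smarca4* knockdown and 4 Nons libraries. The labels also list a second Nons library for each day, and these 4 were not analysed here. Nothing states that the days of a series came from separate cultures, and the *p*-values measure only the spread between same-day hairpin libraries. The spread of Nons itself was not measured.

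Sox1 is among the first transcription factors to mark neural precursors as they leave the epiblast, and Pax6 follows in many of them. Nestin, the product of *Nes*, is an intermediate filament of neural stem cells that other precursor cells also make. Hes5 is a repressor induced by Notch signalling, and Neurog2 is a proneural factor of the kind that Hes repressors oppose. Sox11, doublecortin (*Dcx*), the tubulin Tubb3 and the microtubule protein Map2 mark neurons as they form. The BAF complex exchanges some of its subunits as neural precursors become neurons.

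Sequences of the hairpin guides are shown because every comparison below rests on which hairpin a library received. Guides are written 5′ to 3′ as the strand that pairs with the target mRNA, and capitals mark the seed, bases 2 to 8.
Smarcc1.6: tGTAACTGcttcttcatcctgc
Smarcc1.7: tTGCTCATcttcttccttctga
Smarca4.4: tTTATTACtgtctgactccagt
Smarca4.6: tTGCATAAtagtgttcatcagt
Nons: cTTACTCTcgcccaagcgagag
The first 21 bases of each targeting guide had a full complement in transcripts of 1 gene, the intended target, in the GENCODE vM21 annotation of GRCm38, the build also called mm10. In *Smarcc1* the site of Smarcc1.6 lies at chr9:110177473-110177493 in coding exon 13 of 28 of the transcript with the longest coding part, and that of Smarcc1.7 at chr9:110173912-110173932 in coding exon 11. In *Smarca4* the site of Smarca4.6 lies at chr9:21670505-21670525 in coding exon 22 of 34, and that of Smarca4.4 at chr9:21703328-21703348 in the 3′ UTR, in exon 34. No guide had a full complement in a transcript of any of the 9 neural genes, and the Nons guide had none in any transcript searched. Over the 4 days, *Smarcc1* was lower in *Smarcc1* knockdown than in Nons by a log2 fold change of -1.33 (SE 0.21, limma adjusted *p* = 0.0011), and *Smarca4* was lower in *Smarca4* knockdown by -1.79 (SE 0.29, limma adjusted *p* = 0.0028).

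Libraries held 6829596 to 27472885 reads, with the fewest for Smarca4.4 on day 5. With 3 reads as the smallest number told from none, the floor was 0.109 to 0.439 rpm depending on the library. Of the 9 genes 6, *Sox1*, *Pax6*, *Sox11*, *Nes*, *Tubb3* and *Map2*, had a mean log2 rpm of at least 0 and entered the test with 13296 genes in all. *Neurog2*, *Hes5* and *Dcx* did not, and are given as reads. Nons was 1 series of libraries, so the error of every test comes from the differences between the 2 hairpins of a gene on the same day, and both knockdowns were compared with the same 4 Nons libraries. In these bulk libraries, fewer cells making a transcript and less of it in each cell cannot be told apart.

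*Sox1* was higher in both knockdowns, and of the 6 neural genes tested it had the largest log2 fold change from Nons. Its entry lies at chr8:12395295-12400126 on the plus strand, inside the long noncoding entry *Gm5607*, which held 0 to 10 reads. In Nons, *Sox1* was at 3.71 rpm on day 4, 2.84 on day 5, 1.34 on day 6 and 0.533 on day 7. With Smarcc1.6 it was at 5.89, 5.08, 13.4 and 10.6 rpm on the same days, and with Smarcc1.7 at 7.02, 9.58, 16.6 and 7.30 rpm. With Smarca4.4 the values were 6.92, 10.4, 29.9 and 8.14 rpm, and with Smarca4.6 they were 3.79, 9.21, 7.56 and 5.10 rpm. Nons fell at each step, whereas the 4 hairpin series reached their highest value on day 5 or day 6, and every hairpin library was above Nons of its day. The closest approach was day 4 of Smarca4.6, where 69 reads at 3.79 rpm were set against 102 reads at 3.71 rpm in Nons. By day 7 the Nons value rested on 10 reads, with an exact 95% interval (Clopper-Pearson) of 0.256 to 0.980 rpm, while the 4 hairpin libraries held 86 to 232 reads. Such intervals cover counting error only.

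**Figure D1:**
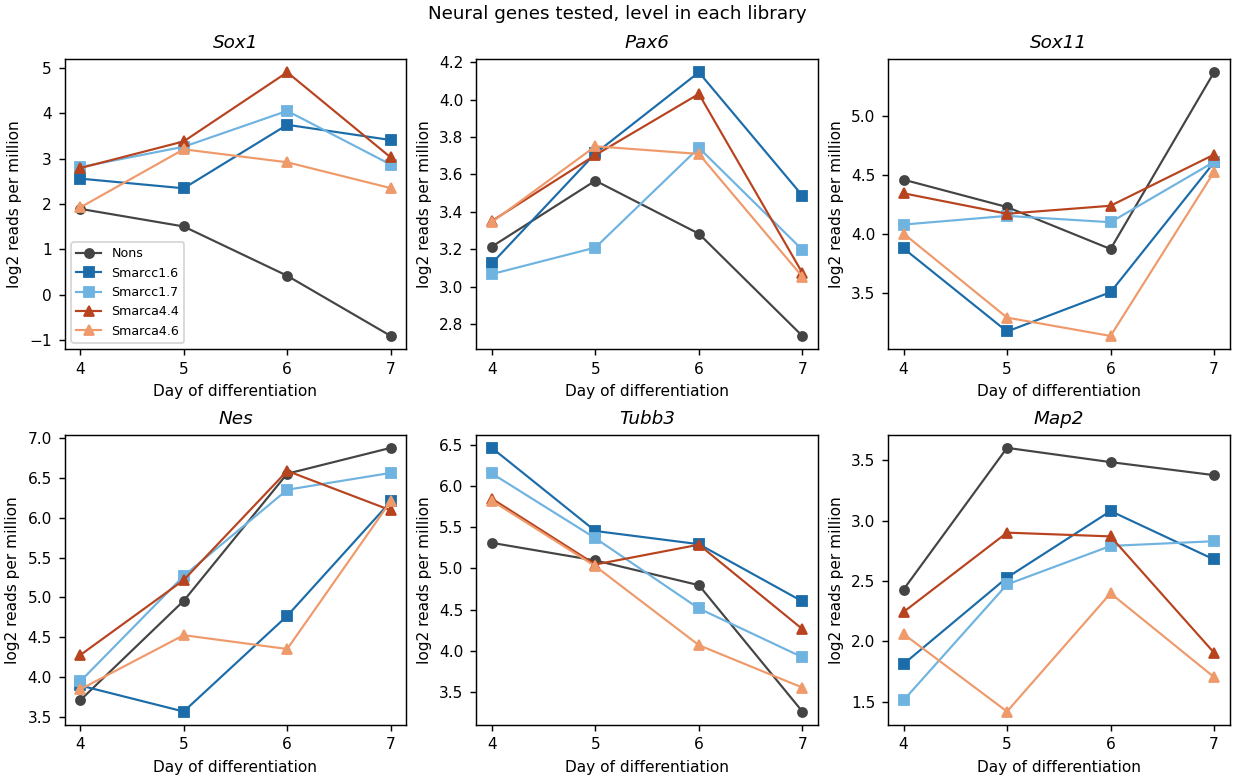
Level of the 6 neural genes tested, in log2 rpm (vertical axis, a different range in each panel), against day of differentiation (horizontal axis), where each point is 1 library and each line a series. *Sox1* fell from 1.89 to -0.91 in Nons (grey) and stayed between 1.92 and 4.90 in the hairpin libraries, from day 4 to day 7 *Nes* rose and *Tubb3* fell in all 5 series, and *Map2* was highest in Nons on every day.

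Averaged over the 4 days, the log2 fold change of *Sox1* was 2.40 in *Smarcc1* knockdown (SE 0.33, limma adjusted *p* = 0.00055) and 2.33 in *Smarca4* knockdown (SE 0.33, limma adjusted *p* = 0.0012). These are 5.29-fold and 5.04-fold. Of the 6 neural genes tested, *Sox1* was the only one called in *Smarcc1* knockdown, against 10.6% of all genes tested, and *Sox1* and *Map2* were the 2 called in *Smarca4* knockdown, against 6.71% of all genes. Among the 1003 genes called higher in *Smarcc1* knockdown, 36 had a larger log2 fold change than *Sox1*, and among the 631 called higher in *Smarca4* knockdown, 7 did. All 8 libraries of a knockdown lay above same-day Nons for 8.69% of genes in *Smarcc1* knockdown and 9.85% in *Smarca4* knockdown, and *Sox1* was one of these genes in each. *Pax6*, which was not called, was another in *Smarca4* knockdown. Without day 7 the *Sox1* call in *Smarca4* knockdown was lost, at a log2 fold change of 1.91 (limma adjusted *p* = 0.056). At a filter of at least 10 rpm *Sox1* was not tested.

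The difference in *Sox1* from Nons was small on day 4 and large from day 6. Contrasts within each day were added after seeing the data. On day 4 the log2 fold change was 0.79 in *Smarcc1* knockdown and 0.46 in *Smarca4* knockdown (SE 0.66 for each), and on day 5 it was 1.30 and 1.79 (SE 0.66 for each), of which none was called. On day 6 it was 3.48 in *Smarcc1* knockdown (limma adjusted *p* = 0.013, with 2.84% of all genes called) and 3.49 in *Smarca4* knockdown (limma adjusted *p* = 0.025, with 0.97% called). On day 7 it was 4.05 (limma adjusted *p* = 0.0038, with 4.35% called) and 3.60 (limma adjusted *p* = 0.016, with 1.59% called). The difference between knockdown and Nons in the change over days did not pass its test. From day 4 to day 7 the change differed from that in Nons by 3.25 in *Smarcc1* knockdown (SE 0.94, limma adjusted *p* = 0.20) and by 3.13 in *Smarca4* knockdown (SE 0.94, limma adjusted *p* = 0.55). In that test 0.459% and 0.0827% of all genes were called, none of the 6 neural genes was called by limma or limma-voom, and by limma 1 gene of the 6, *Sox1*, had an unadjusted *p* under 0.05 in each knockdown, compared with 1 in *Smarcc1* knockdown and 2 in *Smarca4* knockdown by limma-voom.

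*Map2*, a microtubule-associated protein of neuronal dendrites, was lower in *Smarca4* knockdown. Its entry, *Mtap2*, lies at chr1:66175273-66442583 on the plus strand. In Nons it was at 5.39, 12.2, 11.2 and 10.4 rpm on days 4 to 7. With Smarca4.4 it was at 4.74, 7.47, 7.31 and 3.75 rpm, and with Smarca4.6 at 4.17, 2.68, 5.27 and 3.26 rpm. With Smarcc1.6 it was at 3.51, 5.77, 8.46 and 6.41 rpm, and with Smarcc1.7 at 2.85, 5.55, 6.92 and 7.11 rpm. All 16 hairpin libraries lay below Nons of their day, which was so for 4.48% of genes in the 8 libraries of *Smarca4* knockdown and for 5.17% in those of *Smarcc1* knockdown. The log2 fold change was -1.04 in *Smarca4* knockdown (SE 0.23, limma adjusted *p* = 0.019) and -0.76 in *Smarcc1* knockdown (SE 0.23, limma adjusted *p* = 0.057). With the series, that is the hairpin, as a block the *Smarca4* value did not pass (limma adjusted *p* = 0.10), nor without Smarca4.6, where it was -0.74. It also did not pass without Smarcc1.6 or Smarcc1.7 (limma adjusted *p* = 0.060 and 0.059), without day 6 (-1.10, limma adjusted *p* = 0.054) or without day 7 (-0.86, limma adjusted *p* = 0.27), whereas the *Smarcc1* value passed under 8 of 16 alternative settings. Between day 4 and day 7 *Map2* changed by a mean of 0.49 over the 5 series (limma adjusted *p* = 0.091). That value lay between 0.02 and 0.70 under 14 alternative settings and passed under 5 of them, the block on series included. In the 2 *Smarca4* series *Map2* was lower on day 7 than on day 4.

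*Tubb3*, *Pax6*, *Sox11* and *Nes* were called in neither knockdown, and their intervals leave room for moderate changes. For *Tubb3*, a tubulin of newly formed neurons, the log2 fold change was 0.60 in *Smarcc1* knockdown (95% interval 0.09 to 1.12, limma adjusted *p* = 0.14) and 0.25 in *Smarca4* knockdown (95% interval -0.26 to 0.76, limma adjusted *p* = 0.62). Without day 6 the *Smarcc1* value was 0.77 and passed (limma adjusted *p* = 0.035). *Tubb3*, at chr8:123411424-123422015, lies inside the much longer entry *Gm20388* on the same strand, which held 236 to 1577 reads, and the sharing of reads between them is not known. For *Pax6* it was 0.26 (95% interval -0.05 to 0.57, limma adjusted *p* = 0.31) and 0.30 (95% interval -0.01 to 0.61, limma adjusted *p* = 0.27). Of the 6 genes tested, *Nes* had the hairpins that differed most. Their SD on the same day was 0.83 on the log2 scale for *Smarcc1* and 0.84 for *Smarca4*. For *Pax6* it was 0.25 and 0.11, and for *Sox1* 0.40 and 0.80. The *Nes* value of -0.45 in *Smarcc1* knockdown had a 95% interval of -1.36 to 0.45 and that of -0.39 in *Smarca4* knockdown one of -1.29 to 0.52. *Sox11* was at -0.47 (95% interval -1.01 to 0.07) and -0.44 (95% interval -0.97 to 0.10).

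**Figure D2:**
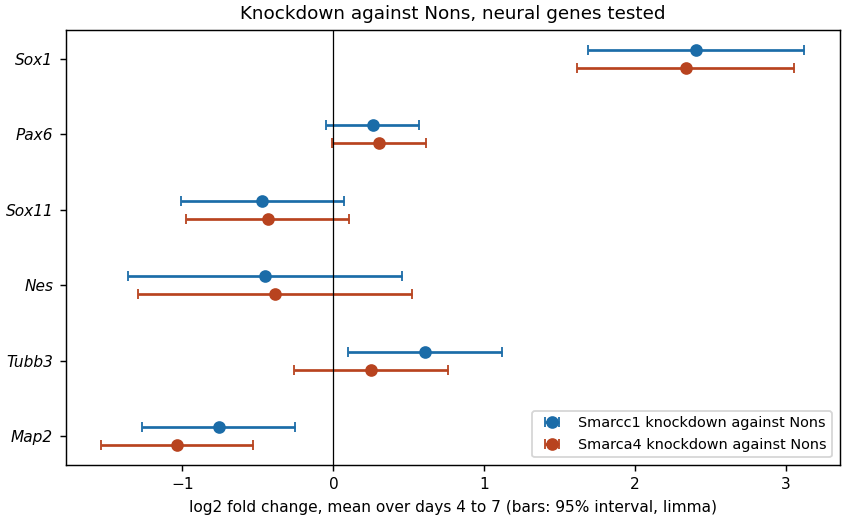
Log2 fold change from Nons averaged over days 4 to 7 (horizontal axis) for the 6 neural genes tested, in *Smarcc1* knockdown (blue) and *Smarca4* knockdown (red), where points are limma estimates and bars their 95% intervals. *Sox1* lies at 2.40 and 2.33, *Map2* at -0.76 and -1.04, and the other 4 genes between -0.47 and 0.60.

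None of the 6 genes was called by limma between the knockdowns, where 4.09% of all genes were, none had an unadjusted *p* under 0.05, and limma-voom on recovered reads also called 0. The log2 difference of *Smarcc1* from *Smarca4* knockdown was 0.07 for *Sox1* (95% interval -0.52 to 0.66), 0.28 for *Map2* (95% interval -0.14 to 0.69) and 0.36 for *Tubb3* (95% interval -0.06 to 0.77). For *Nes* it was -0.07, with the widest interval of the 6, -0.81 to 0.67. Without the smallest library the *Map2* difference was 0.46 and passed (limma adjusted *p* = 0.045).

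The 3 genes under the filter were close to the detection floor. *Hes5*, at chr4:154960923-154962371 on the plus strand, had no reads in the 5 libraries of day 4, where the exact 95% interval in Nons reaches 0.134 rpm. In Nons it had 3 reads on day 5 and none on days 6 and 7. With Smarcc1.6 it had 9, 17 and 8 reads on days 5 to 7, and with Smarcc1.7 it had 12, 7 and 5. With Smarca4.4 it had 1, 3 and 2 reads, and with Smarca4.6 it had 10, 4 and none. All 6 *Smarcc1* knockdown libraries of days 5 to 7 thus held reads of *Hes5*, compared with 5 of 6 in *Smarca4* knockdown and 1 of 3 in Nons. Summed over days 4 to 7, an added summary, *Hes5* was at 0.356 rpm in *Smarcc1* knockdown (58 reads) and 0.0367 rpm in Nons (3 reads), a ratio of 9.70 with an exact 95% interval of 3.16 to 48.4. In *Smarca4* knockdown it was at 0.139 rpm (20 reads), a ratio to Nons of 3.79 with an interval of 1.12 to 19.9. These intervals cover counting error only and not the spread between cultures. Without the filter, *Hes5* was called in *Smarcc1* knockdown (limma adjusted *p* = 0.0025, where 6.92% of all genes were called) and not in *Smarca4* knockdown (limma adjusted *p* = 0.30, where 3.42% were). In that fit a library without reads of *Hes5* holds a value set by its depth alone. On day 4 this was -4.932 log2 rpm in Nons, -4.605 with Smarcc1.6 and -4.616 with Smarcc1.7. The Nons values of days 6 and 7 were of the same kind, so the call rests partly on such values. An entry on the opposite strand, *Gm20421*, overlaps *Hes5* and held 0 to 10 reads, and since the use of strand is not given, reads of the 2 cannot be told apart.

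**Figure D3:**
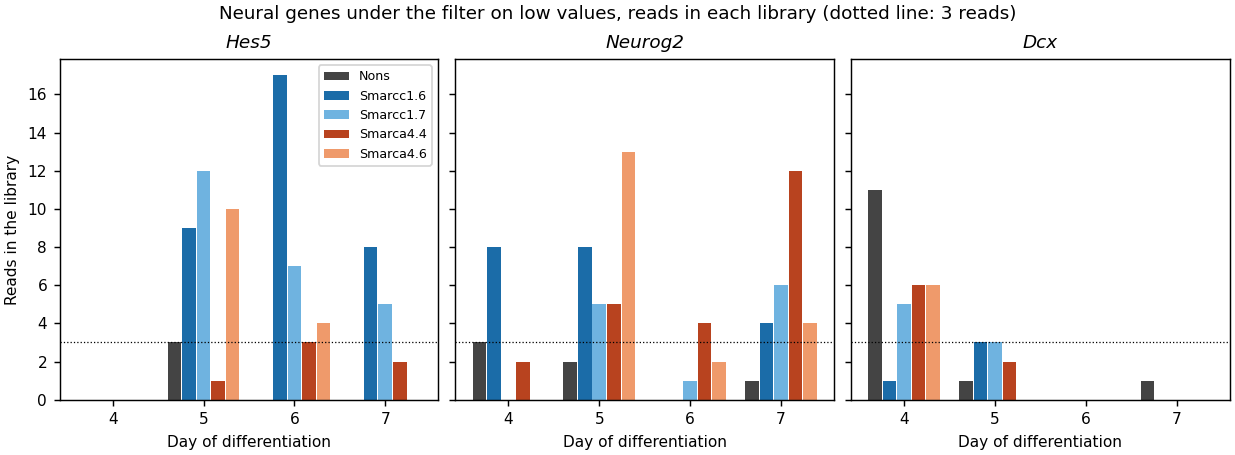
Reads in each library (vertical axis) of the 3 neural genes under the filter on low values, by day of differentiation (horizontal axis), with 1 bar per series and a dotted line at 3 reads. *Hes5* had its highest bar, 17 reads, with Smarcc1.6 on day 6, *Neurog2* had 13 reads with Smarca4.6 on day 5, and *Dcx* had 11 reads in Nons on day 4 and none in any series on day 6.

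*Neurog2* had 0 to 3 reads in each Nons library, 0 to 8 in *Smarcc1* knockdown and 0 to 13 in *Smarca4* knockdown. Its largest values were 13 reads with Smarca4.6 on day 5 and 12 with Smarca4.4 on day 7. Summed over days 4 to 7 the ratio to Nons was 3.98 in *Smarca4* knockdown (exact 95% interval 1.68 to 11.4, 42 reads) and 2.68 in *Smarcc1* knockdown (exact 95% interval 1.10 to 7.83, 32 reads), against 6 reads in Nons. It was called in neither knockdown without the filter (limma adjusted *p* = 0.13 and 0.39). *Dcx*, which marks migrating young neurons, was found mainly on day 4, with 11 reads in Nons and 1 to 6 with the hairpins, and no library held a read of it on day 6. On day 7 it had 1 read, in Nons.

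The course over days was shared by the 5 series for *Nes* and *Tubb3*. From day 4 to day 7, *Nes* went from 13.0 to 118 rpm in Nons, from 14.8 to 73.8 with Smarcc1.6, from 15.4 to 94.7 with Smarcc1.7, from 19.3 to 68.3 with Smarca4.4 and from 14.3 to 74.0 with Smarca4.6. The mean log2 fold change was 2.46 (SE 0.43, limma adjusted *p* = 0.00025), or 5.51-fold. *Tubb3* fell in the same interval, from 39.7 to 9.59 rpm in Nons, from 88.4 to 24.3 with Smarcc1.6, from 71.2 to 15.2 with Smarcc1.7, from 57.6 to 19.2 with Smarca4.4 and from 56.6 to 11.7 with Smarca4.6. Its mean log2 fold change was -2.00 (SE 0.24, limma adjusted *p* = 1.1e-05). *Nes* thus rose while *Tubb3* fell. These were the 2 genes of the 6 called, where 66.3% of all genes were called, so a call between day 4 and day 7 was the rule in these libraries. The rise of *Nes* does not stand for neural progenitor genes as a group. Of 15 such genes tested, *Nes* among them, 3 rose and 6 fell between these days. Their median was -0.53, beside 0.09 over all genes.

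*Sox11* rose in the last step. In Nons it was at 22.0, 18.7, 14.6 and 41.5 rpm on days 4 to 7. The hairpin libraries were at 14.7 to 20.3 rpm on day 4, at most 18.0 on day 5, 8.77 to 18.9 on day 6 and 23.1 to 25.5 on day 7, all 4 below Nons on day 7. Between day 6 and day 7 it rose by 0.99 on the log2 scale (SE 0.26, limma adjusted *p* = 0.015), and from day 4 to day 7 the value was 0.61 (limma adjusted *p* = 0.053), which passed under 8 of 15 alternative settings. The *Sox11* entry spans only the 5′ part of the gene, chr12:27340697-27342709 on the minus strand, whereas RefSeq extends the gene to position 27334268, so the rest of the gene lies outside the entry.

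*Pax6* was called in 1 step, from day 6 to day 7. Its entry, chr2:105668896-105703160 on the plus strand, overlaps the end of *Elp4* on the other strand. It was at 9.28, 11.9, 9.74 and 6.66 rpm in Nons, and its highest hairpin values were 17.7 rpm with Smarcc1.6 and 16.4 rpm with Smarca4.4, both on day 6. Between day 6 and day 7 it fell in all 5 series, by a mean of -0.67 on the log2 scale (SE 0.15, limma adjusted *p* = 0.0066). In the same step *Sox1* fell by -1.06 (SE 0.34, limma adjusted *p* = 0.036) and *Tubb3* by -0.87 (SE 0.24, limma adjusted *p* = 0.020), so 4 of the 6 genes were called between day 6 and day 7, where 29.2% of all genes were. Without Smarca4.4 only *Sox11* was called there, and without Smarca4.6 only *Sox1* and *Tubb3* were. *Tubb3* was the only one of the 6 called between day 4 and day 5 (-0.72, SE 0.24, limma adjusted *p* = 0.031, with 43.1% of all genes called). Without either *Smarcc1* hairpin or without the smallest library this call was lost. Between day 5 and day 6 none of the 6 was called by limma or limma-voom, with 34.8% of all genes called, and 1, *Nes*, had an unadjusted *p* under 0.05.

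Across the 20 libraries, *Sox1* and *Pax6* had a Pearson *r* of 0.642, *Nes* and *Tubb3* one of -0.716, and *Sox11* and *Pax6* one of -0.639. The libraries share series, day and depth, so these values describe the table and were not tested. By the same measure the genes most like *Sox1* were *Gprin1*, *Slc47a2* and *Fzd9* (*r* of 0.845, 0.832 and 0.828). *Rgs2* was most like *Pax6* (0.891), *Man2a1* most like *Sox11* (0.928), *Dock11* most like *Nes* (0.960), *Gm16832* most like *Tubb3* (0.939) and *Gpr98* most like *Map2* (0.865). None of the 6 neural genes tested was among the 3 most alike of another of the 6.

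*Sox1* was called higher in both knockdowns. *Hes5*, close to the detection floor, was called higher only in *Smarcc1* knockdown and only without the filter. Promoters of these 2 genes, the only ones of the 9 with letters of the motifs searched, are shown with those letters in capitals. They are from RefSeq on GRCm38.p6, from 250 bases before to 50 after the start, on the plus strand. All 9 genes had an entry, and *Pax6* and *Dcx* had 2. The motifs searched on both strands were the core of the site of Rbpj, the DNA-binding partner of Notch, GTGGGAA, and the octamer bound by POU factors such as Pou5f1, ATGCAAAT, which do not overlap in these windows.
*Sox1*, chr8:12395269-12395568: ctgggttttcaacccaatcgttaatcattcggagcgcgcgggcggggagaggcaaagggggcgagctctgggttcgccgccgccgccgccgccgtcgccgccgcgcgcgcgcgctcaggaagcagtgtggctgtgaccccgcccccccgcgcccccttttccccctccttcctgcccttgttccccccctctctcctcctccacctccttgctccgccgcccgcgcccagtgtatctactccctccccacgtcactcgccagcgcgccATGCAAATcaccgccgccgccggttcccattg
*Hes5*, chr4:154960673-154960972: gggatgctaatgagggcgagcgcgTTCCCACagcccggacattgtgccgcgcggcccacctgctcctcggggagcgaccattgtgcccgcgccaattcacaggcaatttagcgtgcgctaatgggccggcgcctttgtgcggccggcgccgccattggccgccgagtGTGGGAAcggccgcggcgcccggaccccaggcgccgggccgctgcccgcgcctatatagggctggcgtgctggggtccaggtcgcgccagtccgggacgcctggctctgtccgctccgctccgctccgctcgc
The Rbpj letters were found 2 times in the *Hes5* window, as TTCCCAC from position -226 and as GTGGGAA from position -83, where 1 is the first base of the transcript. They were in no window of the other 8 genes and in 6.38% of all promoters. The octamer letters were found in the *Sox1* window from position 19, in none of the other 8 genes and in 1.74% of all promoters. A match of letters is no measure of binding.

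*Sox1* is one of 29 neural progenitor genes listed, of which 15 were tested. In *Smarcc1* knockdown 5 rose and 2 fell, and in *Smarca4* knockdown 4 rose and 2 fell, where 10.6% and 6.71% of all genes were called. The median log2 fold change was 0.26 and 0.30, beside 0.06 over all genes in each comparison. Beside *Sox1* the largest rise in *Smarcc1* knockdown was that of *Gbx2*, a factor of the anterior hindbrain (1.58, SE 0.29, limma adjusted *p* = 0.0039), and in *Smarca4* knockdown that of *Sox21*, a Sox factor of neural precursors (1.58, SE 0.25, limma adjusted *p* = 0.0027). *Gbx2* is also expressed in mESCs. *Cdh2*, the cadherin that neural precursors take up, fell by -1.26 and -1.78 (limma adjusted *p* = 0.037 and 0.0095), and *Otx2*, a factor of epiblast and forebrain, by -0.45 and -0.60 (limma adjusted *p* = 0.026 and 0.0087). *Sox2*, which pluripotent and neural cells share, rose by 0.45 in *Smarcc1* knockdown (SE 0.11, limma adjusted *p* = 0.019). With *Sox21* it made 2 of 7 Sox family genes tested that rose there, while *Sox21* alone rose in *Smarca4* knockdown. These list calls, like those of the lists below, are from the fit without the series as a block. With that block, 605 instead of 1412 of all genes tested were called in *Smarcc1* knockdown. In *Smarca4* knockdown 258 instead of 892 were. How many list genes passed with the block is not given here.

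Of 25 neuron genes listed 17 were tested, of which 3 rose and 2 fell in *Smarcc1* knockdown and 2 rose and 1, *Map2*, fell in *Smarca4* knockdown, beside 10.6% and 6.71% of all genes called. *Mapt*, the microtubule protein tau, rose by 1.05 and 1.15 (SE 0.16, limma adjusted *p* = 0.000965 and 0.0010), opposite to *Map2*. *Elavl4*, a neuronal RNA-binding protein, rose by 0.83 and 1.01 (limma adjusted *p* = 0.030 and 0.017). In *Smarcc1* knockdown *Stmn2*, a microtubule regulator of growing axons, fell by -0.77 (limma adjusted *p* = 0.027) and *Nefl*, a neurofilament, by -0.69 (limma adjusted *p* = 0.012). Between day 4 and day 7, 12 of the 17 fell and 1 rose, beside 66.3% of all genes called, with a median of -1.11 beside 0.09 over all genes. *Ina*, a neuronal intermediate filament, fell by -3.19 and *Chga*, a protein of secretory granules, by -2.81, while *Gap43*, a protein of growing axons, rose by 1.11 (limma adjusted *p* = 3.0e-06, 5.1e-07 and 0.0011).

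*Neurog2* and *Hes5* belong to the proneural and Notch groups of genes. Of 19 proneural genes and their opponents 11 were tested, of which 2 rose in each knockdown and 1 fell in *Smarca4* knockdown, with medians of 0.03 and 0.05 beside 0.06 over all genes. *Neurog3*, which in the embryo drives endocrine cells of the pancreas, rose by 3.75 in *Smarcc1* knockdown and 1.88 in *Smarca4* knockdown (SE 0.25, limma adjusted *p* = 4.2e-06 and 0.00080), and the 2 differed (1.87, SE 0.20, limma adjusted *p* = 0.00042). Its level in Nons on day 7 rested on 2 reads. *Insm1*, a factor of neuroendocrine cells, rose by 1.84 and 2.03 (limma adjusted *p* = 0.0010 and 0.0011), and *Neurod1* fell by -1.15 in *Smarca4* knockdown (limma adjusted *p* = 0.025). Of 26 Notch pathway genes 23 were tested, of which 4 rose and 1 fell in *Smarcc1* knockdown and 3 rose and 1 fell in *Smarca4* knockdown. *Dll1*, a Notch ligand, rose by 1.76 and 1.26 (SE 0.23, limma adjusted *p* = 0.00037 and 0.0061), and *Lfng*, which modifies the Notch receptor, fell by -0.89 and -0.95 (limma adjusted *p* = 0.014 and 0.016). The median of the Notch list was 0.20 and 0.27, beside 0.06 over all genes, of which 10.6% and 6.71% were called.

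**Figure D4:**
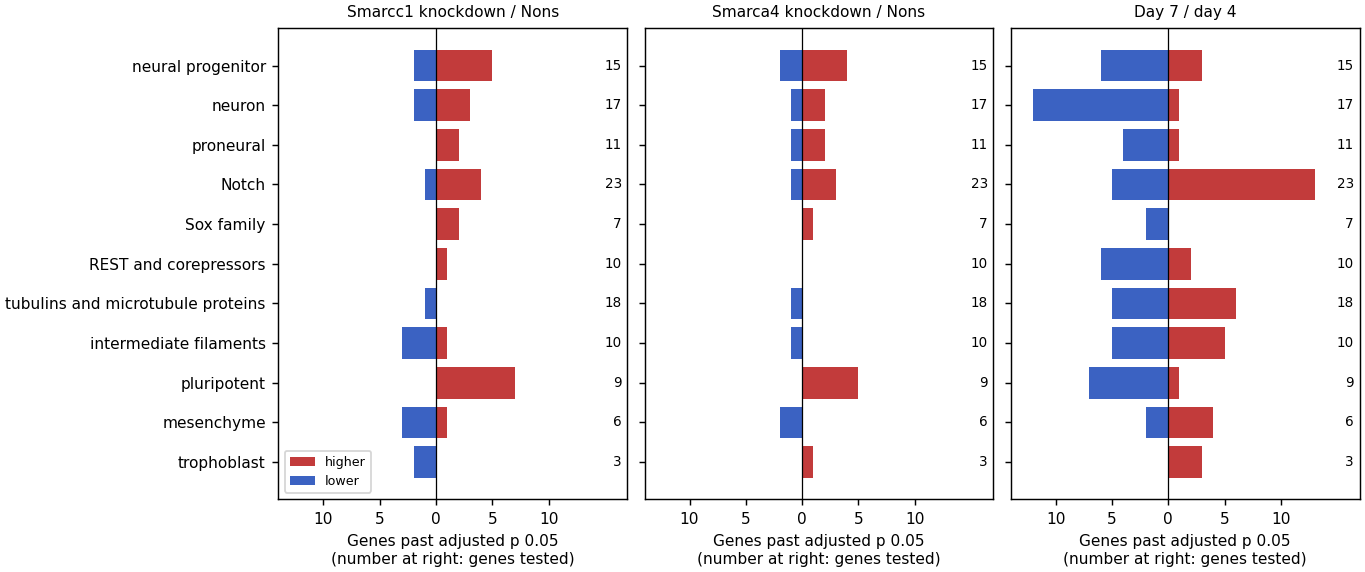
Number of genes of each list past the limma adjusted *p* of 0.05 (horizontal axis), higher to the right in red and lower to the left in blue, in *Smarcc1* knockdown against Nons, *Smarca4* knockdown against Nons and day 7 against day 4, with the number tested at the right edge. Pluripotency genes had 7 and 5 of 9 higher in the knockdowns, neural progenitor genes 5 and 4 of 15 higher, and neuron genes 12 of 17 lower on day 7.

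For the further lists too the shares of all genes called were 10.6% in *Smarcc1* knockdown, 6.71% in *Smarca4* knockdown and 66.3% between day 4 and day 7. Among tubulins and microtubule proteins all 18 listed were tested and 1, *Stmn4*, fell in each knockdown, by -1.33 and -2.08 (SE 0.26, limma adjusted *p* = 0.0055 and 0.00060). *Nefh*, a neurofilament, was the one of 10 intermediate filament genes tested that rose in *Smarcc1* knockdown, by 1.33 (limma adjusted *p* = 0.00017), and 3 fell. Of 10 genes for Rest and its corepressors, which silence neuronal genes in other cells, all were tested and 1, *Rcor2*, rose in *Smarcc1* knockdown, by 0.73 (limma adjusted *p* = 0.013), and none was called in *Smarca4* knockdown. Of the 4 subunits of the neuronal BAF complex 2 were tested, and *Dpf1* rose by 1.10 and 0.77 (SE 0.20, limma adjusted *p* = 0.0032 and 0.034). *Actl6b* had at most 3 reads in every library.

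Markers of other states moved with the same contrasts. Of 9 pluripotency genes, 7 rose in *Smarcc1* knockdown and 5 in *Smarca4* knockdown and none fell, with medians of 1.09 and 0.78 beside 0.06 over all genes, of which 10.6% and 6.71% were called. Their summed level was 433 to 2120 rpm in Nons, 670 to 2360 in *Smarcc1* knockdown and 440 to 2270 in *Smarca4* knockdown. In *Smarca4* knockdown this sum lay on both sides of same-day Nons on days 4 and 5. On day 6 it was below (768 to 918 against 1040 rpm), and on day 7 slightly above (440 to 481 against 433 rpm). In *Smarcc1* knockdown it was above Nons on days 4, 5 and 7 and on both sides of it on day 6. Of 6 mesenchyme genes tested, 1 rose and 3 fell in *Smarcc1* knockdown and 2 fell in *Smarca4* knockdown, and their summed level reached 562 rpm in Nons, 291 in *Smarcc1* knockdown and 197 in *Smarca4* knockdown. Of 3 genes tested on the trophoblast list, 2 fell in *Smarcc1* knockdown and 1 rose in *Smarca4* knockdown. From day 4 to day 7 all 3 rose, among them the keratins *Krt8* and *Krt18* by 6.42 and 6.29 (limma adjusted *p* = 4.5e-11 and 8.2e-11, with 66.3% of all genes called). These 2 keratins mark simple epithelia at large and are also on the intermediate filament list, so their rise does not stand for trophoblast alone. The trophoblast list, with these 2 keratins in the sum, reached at most 3290 rpm in Nons, 1540 in *Smarcc1* knockdown and 2860 in *Smarca4* knockdown. The neural progenitor list summed to 437 to 640 rpm in Nons, 358 to 601 in *Smarcc1* knockdown and 347 to 588 in *Smarca4* knockdown, and its member *Dbx1* had at most 3 reads in every library. On days 4 and 5 the progenitor sum was below Nons in every hairpin library. On day 7 it was 437 rpm in Nons, 513 to 517 in *Smarcc1* knockdown and 405 to 407 in *Smarca4* knockdown. The neuron list summed to 278 to 579 rpm in Nons, 197 to 666 and 153 to 711 in the knockdowns. Its sum was above same-day Nons in every hairpin library on days 4 and 5 and below it on days 6 and 7. The glia list had 4 of 7 genes tested, of which 1 fell in each knockdown, and *Aqp4* and *S100b* had at most 3 reads in every library. The neural crest list had 3 of 7 tested and none called by limma in either knockdown. Of epiblast genes 2 of 4 fell in each knockdown, of endoderm genes 1 of 2 tested rose in each, and the 1 mesoderm gene tested was called in neither. The part of these other states in the values of *Sox1* and *Map2* was not tested.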

How the data were processed

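RNA-seq libraries (TruSeq, single-end 75 bp) were trimmed with trim_galore and aligned to mm10 with tophat or hisat2 by the authors, who deposited log2 rpm values made with the SeqMonk RNA-seq quantitation pipeline. The annotation release and the use of strand are not given in the sources used here. An entry without reads holds the value of 0.9 of a read, and from this step 100% of values below 1000 reads were whole reads within 0.05. Samples were grouped by title. A genotype label names Smarcc for the *Smarca4* libraries, and the titles were followed. The 4 libraries of the other Nons replicate were not analysed here. No pair of hairpin libraries was a duplicate (chi-square per gene 2.76 to 115).

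The fit used lmFit and eBayes with a trend (limma 3.58.1, R 4.3.3), on the 13296 genes whose mean log2 rpm was 0 or more, with 12 means of group and day, 8 residual degrees of freedom, Benjamini-Hochberg adjustment and a threshold of 0.05. Summed reads were compared by an exact interval of their ratio (scipy 1.17.1), and likeness was Pearson's *r* over 20 libraries, of which the 3 highest were noted. For 193 genes in 17 lists, up to 2 rises and 2 falls, the largest past the threshold, were named per list and comparison. *Dbx1*, *Actl6b*, *Aqp4* and *S100b* were named after their values were seen. Guides are from the study's primer list. All listed genes were matched, some Map genes by older symbols. Some genes are on more than 1 list. The neural genes and the lists were chosen with earlier results of these data known. The fit was tested on simulated data. The alternatives were other filters and scalings, limma-voom, a block, and leaving out hairpins, days or the smallest library.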

Additional observations from a re-analysis of the deposited data

Results flagged for a closer look

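Of the neural genes tested, *Sox1*, *Pax6* and *Map2* changed from day 4 to day 7 in one direction in every series of a group and in the other direction in every series of another. *Sox1* changed by -2.80 on the log2 scale in Nons, by 0.85 and 0.055 with Smarcc1.6 and Smarcc1.7, and by 0.24 and 0.43 with Smarca4.4 and Smarca4.6, so the mean change of the knockdowns exceeded that of Nons by 3.25 and 3.13. *Pax6* changed by -0.48 in Nons, by 0.36 and 0.13 with the *Smarcc1* hairpins and by -0.28 and -0.29 with the *Smarca4* hairpins, so that *Smarcc1* knockdown differed from Nons by 0.724 and from *Smarca4* knockdown by 0.532. *Map2* changed by 0.95 in Nons, by 0.87 and 1.32 with the *Smarcc1* hairpins and by -0.34 and -0.36 with the *Smarca4* hairpins, so that *Smarca4* knockdown differed from Nons by -1.29 and *Smarcc1* knockdown from *Smarca4* knockdown by 1.44. None of the 4 differences from Nons passed the test of the difference itself: the limma adjusted *p* was 0.20 and 0.55 for *Sox1*, 0.80 for *Pax6* and 1.00 for *Map2*. Those between the knockdowns were not tested. A group held 1 or 2 libraries on a day, too few to examine single libraries.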

How the results depend on the processing

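Each contrast with Nons rests on 1 Nons series, and *Hes5*, *Neurog2* and *Dcx* are limited by depth. The *Sox1* rise passed under all 16 alternatives that tested it in *Smarcc1* knockdown (1.79 to 2.94) and under 15 of 16 in *Smarca4* knockdown (1.74 to 2.96), the exception being the fit without day 7. Above a mean of 10 rpm neither *Sox1* nor *Map2* was tested, and 0 neural genes were called in each knockdown. In *Smarcc1* knockdown, 1 gene was called, and 2 were called without the filter, with 1 added to rpm, after centring on the median gene, after quantile normalization, with limma-voom, without day 5, without day 6 and without the smallest library, and 1 to 2 with a hairpin left out. In *Smarca4* knockdown, 2 were called, 1 without day 6, 0 without day 7, and 1 to 2 with a hairpin left out. Between the knockdowns, 1 was called without the smallest library. From day 4 to day 7, 2 were called, 5 without the filter, 4 without day 5 or without the smallest library, and 2 to 4 with a hairpin left out. From day 4 to day 5, 1 was called, 3 without the filter, 2 after centring on the median gene or without day 6, 0 after quantile normalization or without the smallest library, and 0 to 1 with a hairpin left out. From day 5 to day 6, 0 were called, and 1 without the filter or without the smallest library. From day 6 to day 7, 4 were called, and 1 to 3 with a hairpin left out. Values that changed sign were none that had passed in the main fit, though the *Map2* difference between the knockdowns passed without the smallest library. *Nes* with a hairpin left out lay between -0.92 and 0.0083 in *Smarcc1* knockdown and between -0.79 and 0.020 in *Smarca4* knockdown. The *Sox1* difference between the knockdowns lay between -0.39 and 0.53 with a hairpin left out and was -0.017 without day 4 and -0.057 without day 7. That of *Map2* lay between -0.017 and 0.57 with a hairpin left out, and its change over days in *Smarcc1* knockdown relative to Nons was -0.21 after quantile normalization and lay between -0.082 and 0.37 with a hairpin left out. The cause of these shifts was not tested.

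The hairpin numbers name hairpins and pair no cultures, and deviations of hairpins correlated between days at -0.21 to 0.82. In the fit with a replicate block by series, that is by hairpin, 1 neural gene was called in *Smarcc1* knockdown, 1 in *Smarca4* knockdown and 0 between the knockdowns. By the same fit 4 were called from day 4 to day 7, 3 from day 4 to day 5, 1 from day 5 to day 6 and 4 from day 6 to day 7. In each difference in the change over days 0 were called. *Sox1* remained called in both knockdowns (limma adjusted *p* = 0.0044 and 0.010).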
